A study of Mus musculus with 6 samples.

Results

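The genes described here are 44 genes of autophagy and the lysosome, chosen by name from the known machinery: 30 that build, load or control the autophagosome and 14 that encode lysosomal proteins. They were chosen with earlier results of these data known, so their shares set beside all genes are description and not a test of the list. All 44 were among the 14133 genes of the deposited table, and all 44 were among the 12516 that passed a filter on low values. Expression was measured by RNA sequencing of total RNA from the mouse heart at 1 month of age, as log2 CPM (reads scaled to library size, on a log scale), in 6 libraries. Of these, 3 were labelled knockout (KO, replicates 6, 7 and 8; genotype Trx1 flox/flox/MHC-Cre) and 3 control (CT, replicates 3, 4 and 5; genotype Trx1 flox/flox), all on the C57BL/6 strain. Both groups carried the floxed alleles of Txn1, which encodes thioredoxin-1, a small protein that keeps the thiols of other proteins reduced. The KO mice also carried Cre recombinase under the promoter of Myh6, a gene of cardiomyocytes, so other heart cells should keep Txn1 intact. No group had Cre without floxed alleles, so the effects of Cre and of the deletion cannot be told apart. The labels do not say whether each library came from a separate animal, and p-values measure only the spread between these libraries. The series asks how Txn1 bears on mitochondria and mTOR signalling in the heart.

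Autophagy delivers cytoplasm to the lysosome. The ULK1 kinase complex starts it and is held back by the kinase complex mTORC1. A lipid kinase complex around Beclin 1 then marks the membrane, the Atg8-family proteins are coupled to the growing autophagosome, and receptors such as p62 bind cargo to them. The lysosome digests what arrives with acid hydrolases, the cathepsins among them. TFEB and TFE3, transcription factors that mTORC1 also keeps out of the nucleus, bind a DNA element called CLEAR in the promoters of many of these genes. In cardiomyocytes, which rarely divide, the pathway removes worn mitochondria and protein aggregates.

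The targeted gene, Txn1, gave no lower value in KO than in CT hearts. It stood at 6.95, 6.90 and 7.13 log2 CPM in KO libraries 6, 7 and 8, against 6.64, 6.996 and 7.04 in CT libraries 3, 4 and 5. The difference was 0.10 (95% confidence interval -0.22 to 0.42, adjusted p = 0.72 by limma with Benjamini-Hochberg adjustment, exact two-sided permutation p = 0.7, where the smallest possible is 0.1). The deleted exons are not marked in a value per gene, and KO below stands for the libraries labelled knockout. The reads behind each library, recovered from the steps between low values, came to 8347636 to 10236783 in KO and 9257984 to 13705281 in CT. Markers of cardiomyocytes dominated every library, with a summed level of 101944 to 139233 CPM in KO and 162080 to 178265 CPM in CT, and 5 of 12 fell. Fibroblast markers summed to 5848 to 11119 CPM in KO and 3534 to 4427 CPM in CT, with 7 of 12 higher past the test. Macrophage markers summed to 1464 to 1674 CPM in KO and 1207 to 1320 CPM in CT, with 1 of 16 higher. No marker of these 3 lists lay at the floor of the table in all libraries. In whole-heart RNA, fewer cells of a type and less RNA per cell cannot be told apart.

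Of the 44 genes, 6 rose in KO hearts and 0 fell, by limma over all genes tested at an adjusted p of 0.05. By limma-voom 0 fell too, in a fit tilted upward for all genes (median 0.08, with 840 called higher and 480 lower). The 6 were Atg13 of the initiation complex, Gabarapl1 of the Atg8 family, the receptor gene Sqstm1, the lysosomal protease genes Ctsd and Ctsl, and Grn, which encodes progranulin. Across all 12516 genes, 4.79 percent were called higher and 4.87 percent lower, against 13.6% and 0 of the 44. Of the 38 others, 8 had an unadjusted p under 0.05 with a positive difference, and 2, Map1lc3a and Npc1, with a negative one. With the called genes that made 14 of the 44 positive and 2 negative, beside 1479 and 1619 of all 12516. The median log2 fold change over the 44 was 0.18, beside -0.01 over all genes tested. Of the 44 differences, 29 (65.9%) were positive, against 48.8% of all genes tested. Under the other scalings 29 to 30 were positive, and 35 by limma-voom, with its upward tilt. Values of KO and CT libraries did not overlap for 22 of the 44, where the share over all genes tested was 30.7 percent. Of these 22, 19 were higher in KO and 3 (Map1lc3a, Atg9a and Npc1) lower, where over all genes tested 14.4 percent were higher without overlap and 16.2 percent lower. The 14 lysosomal genes had the higher median (0.33, 10 of 14 higher without overlap), and the 30 autophagy genes a median of 0.12 (9 of 30).

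**Figure D1:**
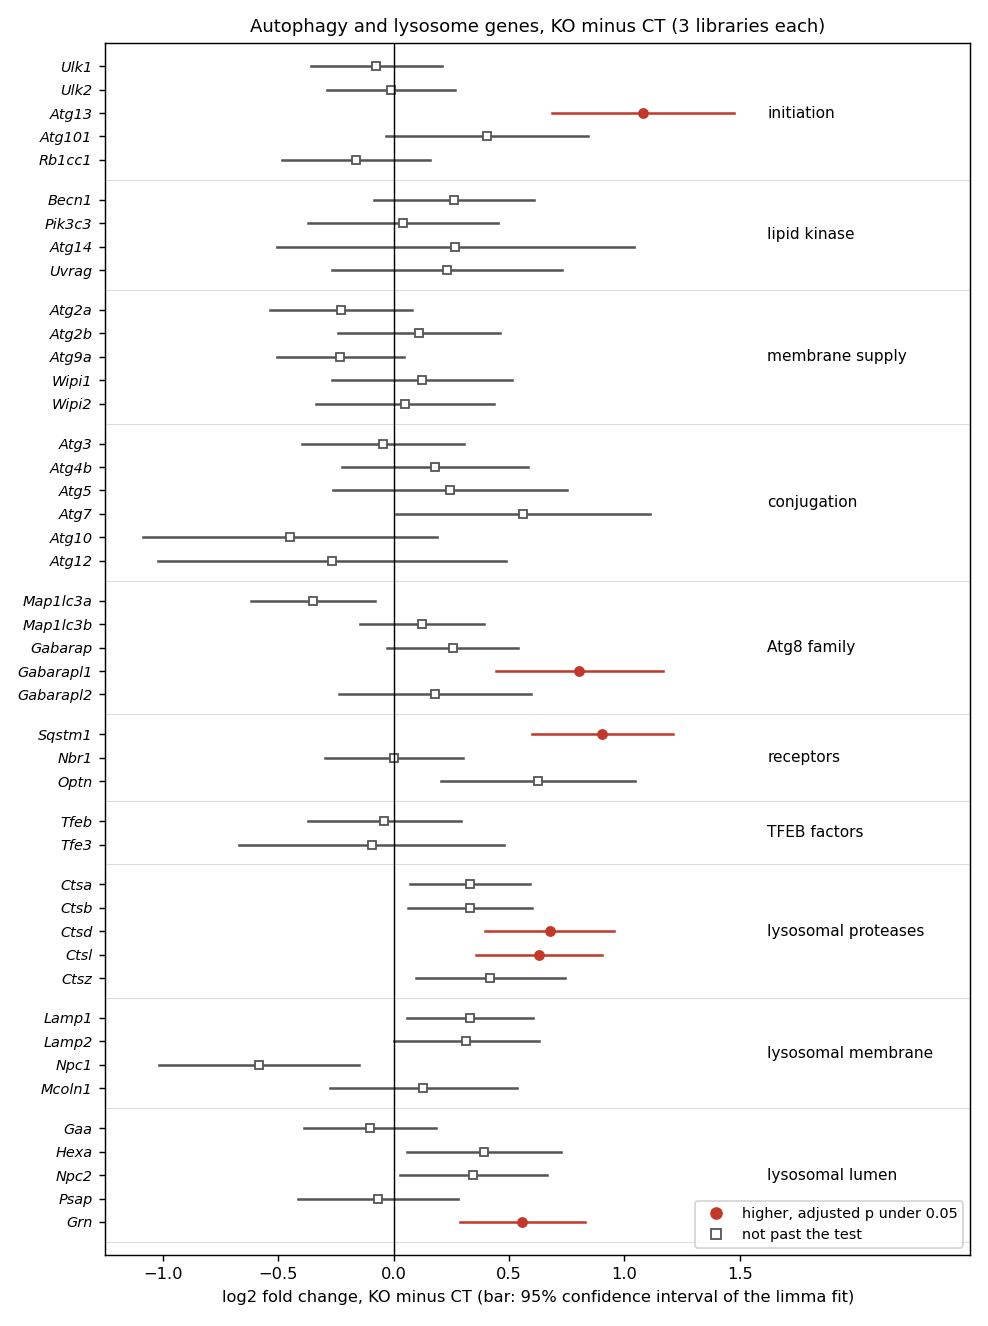
Log2 fold changes (KO minus CT, 3 libraries each) of the 44 genes, grouped by role, with the 95% confidence interval of the limma fit as bars. Red points mark the 6 genes past the test, from Grn at 0.56 to Atg13 at 1.08, and open squares the 38 that were not.

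The calls did not all rest equally on the 6 libraries. Atg13 and Sqstm1 stayed past the test whichever single library was left out (adjusted p up to 0.034 and 0.032 by limma). Gabarapl1, Ctsd, Ctsl and Grn lost the call when CT 3, CT 4 or CT 5 was left out, so 2 of the 44 were then higher (1.93 to 2.43% of all genes), while their adjusted p stayed at or below 0.087. Without KO 8, 8 of the 44 were higher (Atg7 and Ctsb in addition) and 3 lower (Atg10, Map1lc3a and Npc1), in a setting that called 8.07% of all genes higher and 9.39% lower. KO 7 lay farthest from the CT mean for 22 of the 44 genes, KO 6 for 13 and KO 8 for 9. The median of the 44 genes, relative to the CT mean, was 0.10 in KO 6, 0.23 in KO 7 and 0.20 in KO 8, and without KO 7 the median over the 44 was 0.099.

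Among the 5 initiation genes, only Atg13 passed the test. Atg13 encodes the regulatory subunit that ties the ULK kinase to its scaffold and is a direct target of mTORC1 (GRCm38 chr2:91674618-91710576, minus strand). It stood at 6.20, 6.81 and 6.19 log2 CPM in KO libraries 6, 7 and 8, against 5.33, 5.38 and 5.25 in CT libraries 3, 4 and 5. The lowest KO library lay above the highest CT library, and KO 7 was the highest of all. The log2 fold change was 1.08 ± 0.18 (SE, 2.11-fold, adjusted p = 0.00364). No stretch of 50 bases of its 2 GENCODE M21 transcripts with a RefSeq mRNA entry occurs in another gene's. RefSeq lists 7 mRNA transcripts for Atg13, and its recovered reads were not whole (715.714 in KO 6). Its value may thus be an average over transcripts, and a shift between transcripts was not tested. The other subunits gave smaller values. Atg101, whose protein stabilises ATG13, stood at 4.57, 4.95 and 4.49 in KO and 4.40, 4.22 and 4.18 in CT, without overlap (0.40 ± 0.20, adjusted p = 0.241). The kinase genes Ulk1 (-0.08, 95% interval -0.36 to 0.21) and Ulk2 (-0.01, -0.29 to 0.27) and the scaffold gene Rb1cc1 (-0.16, -0.48 to 0.16) had overlapping groups. The difference between Atg13 and its partners was not itself tested.

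The 4 genes of the lipid kinase complex all had positive differences, and none passed the test. Becn1, which encodes the scaffold Beclin 1, was at 5.74, 6.09 and 5.74 log2 CPM in KO and 5.73, 5.54 and 5.53 in CT (0.26 ± 0.16, adjusted p = 0.345). KO 7 stood above the rest, and KO 6 and KO 8 were almost level with the highest CT library. Pik3c3, the catalytic subunit, differed by 0.04 (95% interval -0.37 to 0.45), Atg14, which directs the complex to autophagosome sites, by 0.27 (-0.51 to 1.04), and Uvrag, which directs it to endosomes, by 0.23 (-0.27 to 0.73). Becn1 shares 48.8% of its 50-base stretches with Cntd1, a gene that is not in the table used here.

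The 5 genes that supply membrane were not called either. Atg9a encodes the scramblase of the vesicles that seed the autophagosome. It was lower in every KO library, at 6.75, 6.71 and 6.84 log2 CPM, against 6.96, 7.07 and 6.97 in CT (-0.23 ± 0.13, adjusted p = 0.283). Atg9a shares a large part of its 50-base stretches with the predicted gene Gm29253, which is not in the table used here. Among the 44 genes, only Becn1 shares a larger part with other genes (48.8%). The lipid transfer protein genes Atg2a (-0.23) and Atg2b (0.11) differed in sign and their groups overlapped. Wipi1 and Wipi2, whose proteins read the lipid mark, differed by 0.12 and 0.05. Wipi1 in KO 7 (7.49) stood above every other library, while KO 6 (6.78) and KO 8 (6.82) lay just under the lowest CT library (6.85).

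The 6 conjugation genes encode the enzymes and the ubiquitin-like protein that couple Atg8 proteins to lipid. None passed the test, and 3 differences were positive and 3 negative (Atg3 turned positive by limma-voom). Atg7, the E1-like enzyme, had the highest, at 4.74, 5.03 and 4.19 log2 CPM in KO and 3.73, 4.33 and 4.20 in CT (0.56 ± 0.25, adjusted p = 0.191). KO 8 lay within the CT range, and without it Atg7 was past the test (adjusted p = 0.037). Atg10, an E2-like enzyme, had the lowest, at 3.17, 3.48 and 4.34 in KO and 4.03, 3.99 and 4.32 in CT (-0.45 ± 0.29, adjusted p = 0.376), and there too KO 8 stood apart from KO 6 and KO 7. Atg5, joined to ATG12 in the ligase, differed by 0.24 with no overlap, Atg12 by -0.27, Atg4b, the protease that primes Atg8 proteins, by 0.18, and the E2-like Atg3 by -0.05.

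The Atg8 family coats the autophagosome, and its genes did not move as one. Gabarapl1 rose (chr6:129533160-129542346, plus strand). Its values were 5.49, 5.65 and 5.38 log2 CPM in KO libraries 6, 7 and 8, against 4.58, 4.77 and 4.75 in CT libraries 3, 4 and 5. Every KO library lay at least 0.61 above every CT library, and the log2 fold change was 0.80 ± 0.17 (SE, 1.75-fold, adjusted p = 0.0107). Map1lc3a, one of the LC3 genes, was lower in all KO libraries, at 8.48, 8.36 and 8.60, against 8.85, 8.76 and 8.87 in CT (-0.35 ± 0.12, adjusted p = 0.0985). The groups did not overlap, and the call was reached only without KO 8 (adjusted p = 0.022). Map1lc3b, the LC3 gene whose protein is the usual marker of autophagosomes, was at 7.08, 7.17 and 7.05 in KO and 6.99, 6.95 and 6.99 in CT (0.12 ± 0.12, adjusted p = 0.586). Gabarap was at 7.63, 7.65 and 7.53 in KO and 7.28, 7.24 and 7.52 in CT (0.26 ± 0.13, adjusted p = 0.249), with CT 5 next to KO 8. Gabarapl2 had overlapping groups (0.18, 95% interval -0.24 to 0.59).

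Per kilobase of transcript, Map1lc3a had the highest level of the family in both groups, 321 ± 26.9 CPM per kb in KO and 409 ± 16.9 in CT (SD, n = 3 each). Gabarapl1 was low in both, with 25.0 CPM per kb in KO and 14.3 in CT. As a share of the summed family level per length, Map1lc3a took 57.0 ± 3.4% in KO and 67.0 ± 1.3% in CT (SD, n = 3 each), Gabarap 25.5% and 19.7%, and Map1lc3b 9.62% and 8.15%. Gabarapl1 took 4.45 ± 0.53% in KO and 2.34 ± 0.21% in CT, and Gabarapl2 3.45% and 2.80%. The order of the first 3 was the same in all libraries, while Gabarapl1 stood above Gabarapl2 in the KO libraries and below it in the CT libraries. Gabarapl1 shares 18.6% of its 50-base stretches with 1700101I11Rik, Map1lc3b 13.8% and Gabarapl2 17.0% with predicted genes, none of them in the table used here, so their reads may be split.

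**Figure D2:**
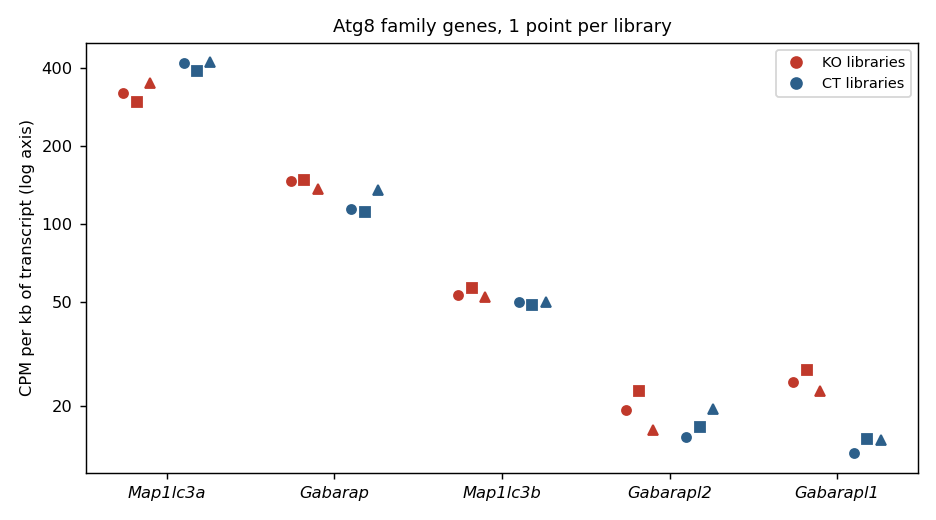
Level of the 5 Atg8 family genes in CPM per kb of transcript (log axis), 1 point per library, KO in red and CT in blue. Map1lc3a is the highest gene with the KO points under the CT points, and Gabarapl1 is low, with KO points at about 25.0 and CT points at about 14.3.

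Sqstm1 had the smallest adjusted p of the 44 genes. It encodes p62, the receptor that binds ubiquitin-tagged cargo to Atg8 proteins and is itself degraded with it (chr11:50199366-50210827, minus strand). It stood at 9.72, 9.83 and 9.40 log2 CPM in KO libraries 6, 7 and 8, against 8.74, 8.82 and 8.66 in CT libraries 3, 4 and 5. All KO libraries lay above all CT libraries, KO 8 being the nearest, and the log2 fold change was 0.90 ± 0.14 (SE, 1.87-fold, adjusted p = 0.00252). The gene overlaps Mrnip on the opposite strand, over 20.6% of its exon bases, and the strand setting used in counting is not stated in the sources used. Mrnip had a far lower level, with a mean of 1.53 log2 CPM in KO and 2.39 in CT, and differed the other way (-0.86 ± 0.41, adjusted p = 0.215). Optn, which encodes the receptor optineurin, was at 6.57, 6.84 and 7.37 in KO and 6.46, 6.08 and 6.36 in CT (0.63 ± 0.19, adjusted p = 0.062). The groups did not overlap, KO 8 was the highest and KO 6 only 0.11 above CT 3, and without KO 6 Optn was past the test (adjusted p = 0.026). Nbr1, the third receptor gene, did not differ in mean (-0.00, 95% interval -0.30 to 0.30).

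The genes of the factors themselves gave no call. Tfeb was at 5.73, 5.51 and 5.62 log2 CPM in KO and 5.61, 5.80 and 5.57 in CT (-0.04, 95% interval -0.37 to 0.29, adjusted p = 0.906). Tfe3 was at 4.39, 3.63 and 3.67 in KO and 4.10, 3.68 and 4.18 in CT (-0.10, -0.67 to 0.48, adjusted p = 0.867). KO and CT libraries were interleaved for both. Both factors are controlled mainly by phosphorylation, which an mRNA level does not show.

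The promoters of the 44 genes were read for the letters these factors bind. RefSeq windows of 250 bases before to 50 after a gene's start (GRCm38.p6) were at hand for 37 of the 44. Searched on both strands (both motifs are palindromes), the E-box CACGTG occurred in 10 of the 37 genes (27.0%), against 11.4% of the 11036 genes of the table that have a window and 8.09% of all 27025 genes with one. TCACGTGA, which contains the E-box and is the core of the CLEAR element, occurred in 4 of the 37 (10.8%), against 1.95% and 1.12%. The 10 genes were Atg14, Atg3, Atg5, Atg7, Ctsa, Ctsd, Ctsl, Gaa, Lamp1 and Mcoln1, and the longer form was in Atg3, Ctsa, Ctsd and Mcoln1. Of the 6 genes that rose, 2 (Ctsd and Ctsl) held an E-box, and of the 31 others with a window 8 did. Windows are shown for the 2 called genes with a match and for 3 lysosomal genes with 2 or more copies, 5′ to 3′ on the gene's strand, with the E-box or its longer form in capitals. They lie at chr7:142387778-142388077 (Ctsd, minus strand), chr13:64370471-64370770 (Ctsl, minus), chr2:164833523-164833822 (Ctsa, plus), chr8:13158911-13159210 (Lamp1, plus) and chr8:3500269-3500568 (Mcoln1, plus).
Ctsd: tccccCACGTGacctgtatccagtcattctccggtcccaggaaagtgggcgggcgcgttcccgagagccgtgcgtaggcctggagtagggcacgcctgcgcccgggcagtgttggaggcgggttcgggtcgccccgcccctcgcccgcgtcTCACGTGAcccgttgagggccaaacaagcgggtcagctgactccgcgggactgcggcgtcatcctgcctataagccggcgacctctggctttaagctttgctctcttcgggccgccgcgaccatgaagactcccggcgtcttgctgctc
Ctsl: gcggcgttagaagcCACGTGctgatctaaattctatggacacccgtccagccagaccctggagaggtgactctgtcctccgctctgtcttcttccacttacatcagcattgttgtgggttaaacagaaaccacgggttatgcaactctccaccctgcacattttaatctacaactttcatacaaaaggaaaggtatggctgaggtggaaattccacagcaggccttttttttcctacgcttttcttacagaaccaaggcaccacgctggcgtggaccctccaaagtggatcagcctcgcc
Ctsa: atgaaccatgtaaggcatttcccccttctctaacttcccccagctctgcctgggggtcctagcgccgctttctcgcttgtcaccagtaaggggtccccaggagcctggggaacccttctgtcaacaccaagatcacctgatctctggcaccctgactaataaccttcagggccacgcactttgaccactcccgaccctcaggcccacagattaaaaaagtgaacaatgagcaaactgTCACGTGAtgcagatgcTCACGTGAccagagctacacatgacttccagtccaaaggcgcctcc
Lamp1: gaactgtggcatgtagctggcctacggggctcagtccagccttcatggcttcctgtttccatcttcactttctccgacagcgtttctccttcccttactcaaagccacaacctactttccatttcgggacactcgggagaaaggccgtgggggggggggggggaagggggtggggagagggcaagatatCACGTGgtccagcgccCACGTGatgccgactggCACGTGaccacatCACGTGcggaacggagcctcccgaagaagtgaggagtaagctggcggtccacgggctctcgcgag
Mcoln1: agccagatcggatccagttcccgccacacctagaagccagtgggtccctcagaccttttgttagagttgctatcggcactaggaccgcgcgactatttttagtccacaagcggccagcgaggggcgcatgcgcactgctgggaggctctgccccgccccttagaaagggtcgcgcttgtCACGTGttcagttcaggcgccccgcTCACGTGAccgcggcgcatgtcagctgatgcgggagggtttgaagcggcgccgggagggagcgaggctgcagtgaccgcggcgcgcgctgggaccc
Lamp1 carries 4 copies close together and Ctsa, Ctsd and Mcoln1 have 2 each. A match is a stretch of letters and not evidence of binding.

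The 5 lysosomal protease genes were higher in every KO library than in any CT library, as were 14.4% of all genes tested. Of the 5, 2 passed the test. Ctsd encodes cathepsin D, an aspartic protease that breaks down proteins in the lysosome (chr7:142375911-142388038, minus strand). It stood at 10.87, 10.88 and 10.92 log2 CPM in KO libraries 6, 7 and 8, against 10.18, 10.21 and 10.25 in CT libraries 3, 4 and 5. The KO libraries lay within 0.05 of each other, and the log2 fold change was 0.68 ± 0.13 (SE, 1.60-fold, adjusted p = 0.00697). Per kilobase, Ctsd had 892 ± 15.5 CPM in KO and 558 ± 13.9 in CT (SD, n = 3 each), the highest level of the 44 genes in KO, while Psap was the highest in CT. It shares 36.6% of its 50-base stretches with the predicted gene Gm49369, which is not in the table used here.

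Ctsl encodes cathepsin L, a cysteine protease (chr13:64359337-64370890, minus strand). It was at 8.95, 9.21 and 8.96 log2 CPM in KO and 8.41, 8.40 and 8.41 in CT. The CT libraries were nearly identical, and KO 7 was the highest, with a log2 fold change of 0.63 ± 0.13 (SE, 1.55-fold, adjusted p = 0.00863). The other proteases differed in the same direction without passing the test. Ctsa, cathepsin A, was at 8.03, 8.18 and 8.09 in KO and 7.81, 7.76 and 7.75 in CT (0.33 ± 0.12, adjusted p = 0.105). Ctsa overlaps Neurl2 (-0.42, adjusted p = 0.138) and Pltp (0.03, adjusted p = 0.948) on the opposite strand, over 22.3% of its exon bases. Ctsb, cathepsin B, was at 9.68, 9.64 and 9.60 in KO and 9.22, 9.40 and 9.31 in CT (0.33 ± 0.12, adjusted p = 0.113). Ctsb shares 15.4% of its 50-base stretches with Fdft1 on the opposite strand, a gene that fell (-0.70 ± 0.15, adjusted p = 0.0135). Ctsz, cathepsin Z, was at 7.21, 6.74 and 6.90 in KO and 6.53, 6.48 and 6.59 in CT (0.42 ± 0.15, adjusted p = 0.0974), with KO 6 well above the other KO libraries.

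**Figure D3:**
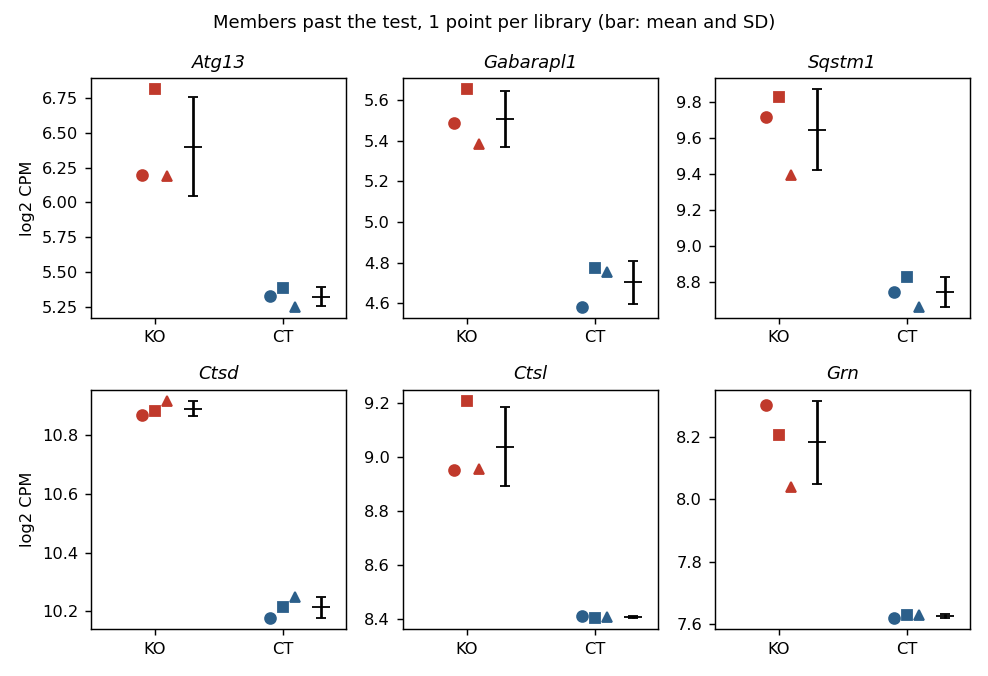
Log2 CPM of the 6 genes past the test, 1 point per library, KO on the left and CT on the right, with the mean and SD of 3 libraries as a bar beside each group. In each panel the lowest KO point lies above the highest CT point, and the CT points of Ctsl and Grn nearly coincide.

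The 4 membrane genes did not share a direction. Lamp1 and Lamp2 encode the glycoproteins that line the lysosomal membrane. Lamp1 was at 9.09, 9.26 and 9.36 log2 CPM in KO and 8.88, 8.89 and 8.95 in CT (0.33 ± 0.13, adjusted p = 0.120), and Lamp2 at 7.02, 7.43 and 7.29 in KO and 6.79, 7.02 and 6.99 in CT (0.31 ± 0.15, adjusted p = 0.202). Neither overlapped, although Lamp2 in KO 6 was almost level with CT 4. Npc1, the transporter that exports cholesterol from the lysosome, was lower in KO, at 5.24, 5.73 and 5.94, against 6.03, 6.52 and 6.12 in CT (-0.58 ± 0.20, adjusted p = 0.0876). The gap between KO 8 and CT 3 was 0.08, and Npc1 passed the test only without KO 8. Mcoln1, the calcium channel of the lysosome, was interleaved (0.13, 95% interval -0.28 to 0.53).

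Among the 5 genes of lumenal proteins other than cathepsins, Grn rose (chr11:102430315-102437048, plus strand). Progranulin is a secreted protein that is also carried into the lysosome, where it is cut into granulins. Grn was at 8.30, 8.21 and 8.04 log2 CPM in KO libraries 6, 7 and 8, against 7.62, 7.63 and 7.63 in CT libraries 3, 4 and 5. The log2 fold change was 0.56 ± 0.12 (SE, 1.47-fold, adjusted p = 0.0151), with KO 6 the farthest from CT. Hexa, a subunit of beta-hexosaminidase, was at 7.36, 6.83 and 6.97 in KO and 6.70, 6.64 and 6.63 in CT (0.39 ± 0.15, adjusted p = 0.130). Npc2, which hands cholesterol to NPC1, was at 6.10, 6.06 and 6.12 in KO and 5.80, 5.88 and 5.57 in CT (0.34 ± 0.15, adjusted p = 0.166), opposite in sign to Npc1. Gaa, the enzyme that digests glycogen in the lysosome, overlapped (-0.10, 95% interval -0.39 to 0.19). Psap, the precursor of the saposins that help lipid hydrolases, was at 10.67, 10.52 and 11.05 in KO, on both sides of 10.82, 10.81 and 10.82 in CT (-0.07, -0.41 to 0.28).

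**Figure D4:**
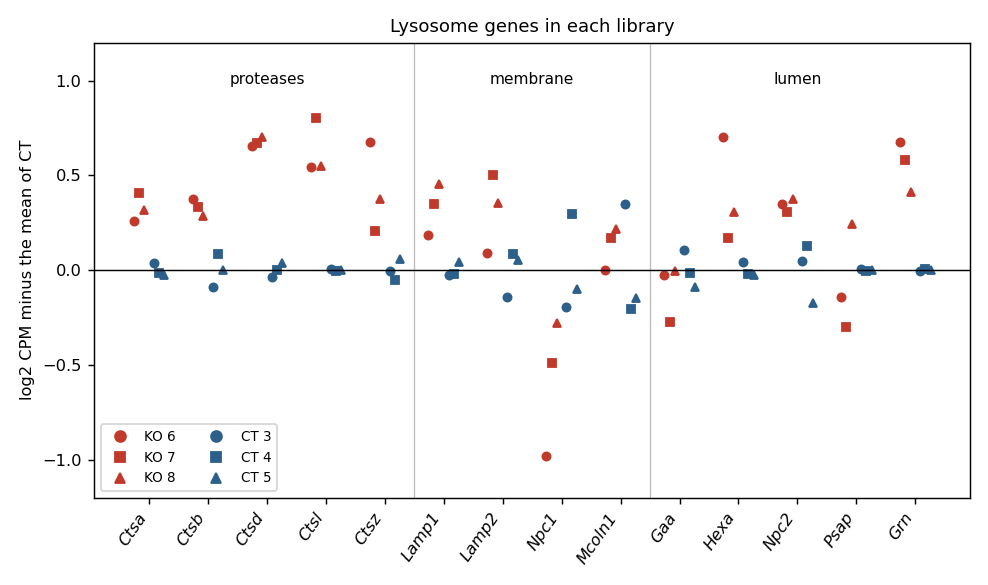
Log2 CPM of the 14 lysosomal genes in each library minus the mean of CT, KO 6 to 8 in red and CT 3 to 5 in blue. The KO points of all 5 proteases lie above their CT points, the KO points of Npc1 lie below them, and those of Psap and Gaa are mixed with them.

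Several of these lysosomal genes are expressed strongly in macrophages, whose markers also had a higher sum in KO hearts. Lyz2, with a mean of 9.57 log2 CPM in KO and 9.17 in CT, had the highest level of these markers and weighs most in that sum. Over 16 macrophage markers the median log2 fold change was 0.23, with 1 past the test, Itgam at 0.97 (adjusted p = 0.0254), against a median of 0.33 over the 14 lysosomal genes. The general macrophage markers Adgre1 (0.22), Csf1r (0.14), Cd68 (0.32) and Lyz2 (0.40) did not pass the test. Of the 16, 12 were positive and 4 negative, the negative ones being Cx3cr1, which was at 0.30, 0.74 and 1.75 log2 CPM in KO and 1.96, 2.47 and 1.94 in CT (-1.19, adjusted p = 0.157), Fcgr1 (-0.60), Aif1 (-0.56) and Ptprc (-0.04). Fibroblast markers had a median of 1.18. The part that a change in these cells plays in the lysosomal values was not tested.

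Lists of further genes of the same pathways gave few calls. Of 29 other autophagy genes 0 passed the test by limma, with a median of 0.06. An unadjusted p under 0.05 was reached by 5 of them, beside 3098 of all 12516 genes tested. By limma-voom on recovered reads 3 were higher, beside 840 of all 12516. The lowest p in that list belonged to the mitophagy receptor gene Bnip3 (0.60, adjusted p = 0.0572) and to Tecpr1 (0.41, adjusted p = 0.0917), whose protein tethers autophagosomes to lysosomes. Of 21 tested subunits of the proton pump that acidifies the lysosome, 19 were positive (90.5%, against 48.8% of all genes tested) and the median was 0.30. The test was passed by 1 (4.76%, where 4.79% of all genes were called higher). That one, Atp6v0a4, a subunit isoform known from the kidney, had 154, 95 and 18 reads in KO and 0, 0 and 11 in CT (adjusted p = 0.0121), so its KO and CT libraries differed mainly in KO 6 and KO 7. Atp6v1h was next (0.58, adjusted p = 0.0772).

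Of 37 other lysosomal enzymes 1 rose, and the list's median was 0.20. The fucosidase gene Fuca1 did not pass the test (0.52, adjusted p = 0.0598). Of 23 other genes of lysosomal membrane and sorting, Cd63, a tetraspanin of late endosomes, rose (0.76 ± 0.13, adjusted p = 0.00419), with a list median of 0.16. Litaf, an endosomal protein, was next in that list (0.75, adjusted p = 0.0564). Of 12 regulators of TFEB, mTORC1 and autophagy transcription, 0 passed by limma, and the median was -0.10, with differences from -0.998 to 0.69. An unadjusted p under 0.05 was reached by 3 (2 positive and 1 negative), beside 3098 of all 12516 genes tested. By limma-voom 2 were higher, beside 840 of all 12516. Rragd and Rragc, the Rag GTPases that bring mTORC1 to the lysosome, were the nearest to the threshold (0.69, adjusted p = 0.0524 and 0.53, adjusted p = 0.0597). Over the 5 lists 3 of 122 tested genes rose (2.46%, against 4.79% of all genes tested) and 0 fell. By limma-voom 0 fell too, in the fit where the median of all genes was 0.08. At an unadjusted p under 0.05, 23 of the 122 differences were positive and 5 negative, beside 1479 and 1619 of all 12516 genes tested. Without KO 7, or without CT 4, 1 of the 122 was higher, and without KO 8, 9 were higher and 4 lower, where 8.07% and 9.39% of all genes were called.

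**Figure D5:**
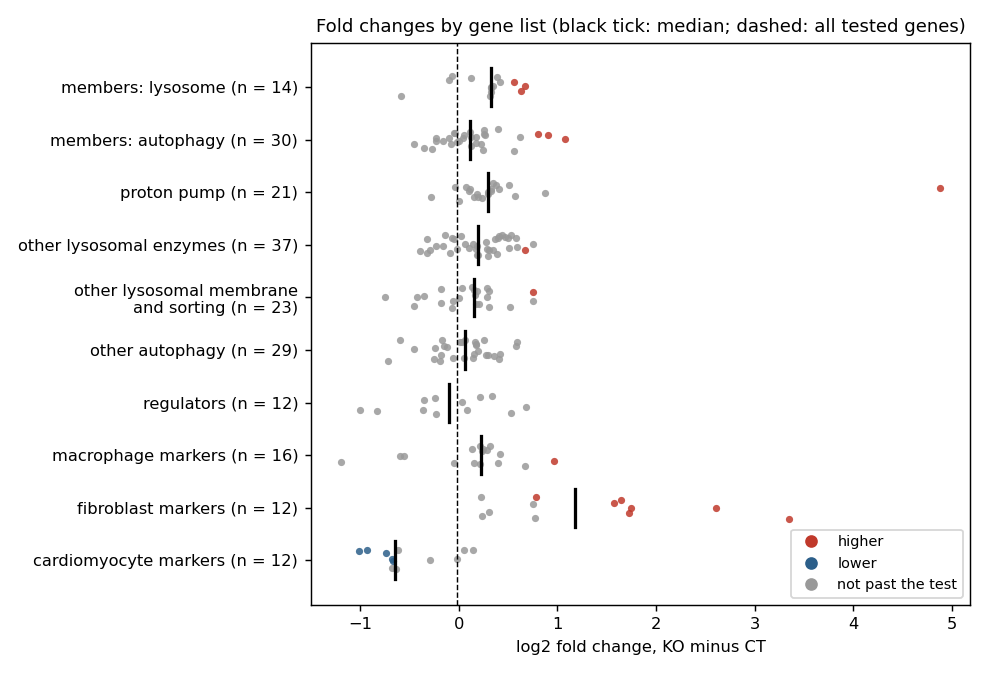
Log2 fold changes (KO minus CT) of single genes by list, with the list's median as a black tick and the median of all tested genes (-0.01) as a dashed line. Red points rose and blue points fell past the test. The 14 lysosomal genes have a median of 0.33, the proton pump 0.30 and the regulators -0.10, and the fibroblast markers the highest median, 1.18. The proton pump point far to the right is Atp6v0a4, whose CT values lie at or near the floor, so its place depends on the floor.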

How the data were processed

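The table was used as the authors deposited it: log2 CPM per gene with 1 column per library, per the file headers. The submitters' processing notes name the build mm10 and the tools CASAVA, HISAT2 and edgeR; roles and versions are not stated there. The lowest value in every library was -3.29 log2 CPM, which a gene without reads takes. Steps between low values gave each library's reads, with 83.6 to 84.9% of genes at whole reads within 0.002, and 31 of the 44 genes whole in all libraries. The rest of the 44, with Atg13 and Sqstm1 of the called genes, each have several RefSeq mRNA transcripts. Their values may be averages over transcripts, and a shift between transcripts was not tested. The fewest reads of one of the 44 genes in a library were 43.

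Genes averaging 0 log2 CPM or more over the libraries entered the test (12516, and 1617 did not) with limma 3.58.1 in R 4.3.3: a group model with an intensity trend, 4 residual degrees of freedom, two-sided, Benjamini-Hochberg adjustment over all genes tested and a threshold of 0.05. Adjusted p-values are from this fit unless another is named. The script was tested on simulated data. Other filters, scalings, trends, library weights, limma-voom on the recovered reads and leaving out each library were tried as alternatives. Levels per length used mean transcript lengths. Coordinates are from GENCODE M21 (GRCm38, counted from 1), and shared 50-base stretches from its transcripts.

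The 44 genes, their role groups and all other lists were chosen with earlier results of these data known. All 44 could be named; of each related list those past the test, or where fewer than 2 passed the 2 with the smallest p. One gene that this rule names is not reported here. Of the markers, list summaries were to be given. Itgam, Adgre1, Csf1r, Cd68, Lyz2, Cx3cr1, Fcgr1, Aif1 and Ptprc were named after their values were seen, as were Fdft1, Mrnip, Neurl2 and Pltp for their overlap. Endothelial markers summed to 1515 to 1909 CPM in KO and 1940 to 2022 CPM in CT, smooth muscle and pericyte markers to 1157 to 1778 CPM in KO and 840 to 1134 CPM in CT, lymphocyte markers to 24.6 to 31.7 CPM in KO and 28.9 to 33.5 CPM in CT, and neutrophil markers to 6.7 to 15.6 CPM in KO and 2.7 to 13.3 CPM in CT. A comparison of Atg8 family proteins was not run, since their sequences were not used here.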

Additional observations from a re-analysis of the deposited data

How the results depend on the processing

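The 6 genes stayed higher under no filter, a stricter filter, median centring, quantile normalization, log2(CPM + 1) and a robust trend. No called value changed sign, and of the 38 uncalled genes 12 did under at least 1 alternative (6 by limma-voom: Ulk1, Ulk2, Atg3, Nbr1, Tfeb and Psap; Psap under quantile normalization; Nbr1 under log2(CPM + 1); the others when a library was left out). Without the intensity trend 0 of the 44 genes and 121 of all genes were called. An unadjusted p under 0.05 was reached by 9 of the 44 and by 2753 of all 12516 genes tested in that fit. Adjusted p there ran from 0.063 to 0.10 for the 6. By limma-voom on recovered reads, 10 of the 44 were higher (Optn, Ctsa, Ctsb and Lamp1 in addition) and their median was 0.27, where the median of all genes moved to 0.08. Library weights called 7, and a 1.5-fold minimum 5, without Grn. Leaving out 1 library gave 2 to 8 of the 44 higher, 0 to 3 lower, a median of 0.099 to 0.21 and 403 to 2185 of all genes called; for the related lists it gave 1 to 9 higher and 0 to 4 lower. Of the related genes 3 were higher, against 0 without the trend, 5 with a robust trend, 5 with library weights (and 1 lower) and 12 by limma-voom. Limma-voom scaled each library to the sum of its recovered reads over the genes tested, with no further normalization. The deposited CPM instead summed to 921199 to 1001288 in the KO libraries and 1017500 to 1044059 in the CT libraries. Differences and counts of higher genes by limma-voom thus carry an upward offset that the main fit lacks. The cause of the other shifts was not tested. Leaving out a library also lowers the residual degrees of freedom. No paired analysis was possible because the groups share no replicate number. Atg12 and Atg14, with the lowest levels per length, had the widest confidence intervals of the 44; the part of depth in this was not tested.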
